A study of Mus musculus with 8 samples.

Results

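A set of 10 genes of male meiosis was followed through 8 epididymal samples of mice given obestatin, its N-terminal peptide, the fragment analog Nt8U or saline. The genes were Sycp1, Sycp2, Sycp3, Rec8, Spo11, Mei1, Dmc1, Msh4, Msh5 and Stra8. They were found by gene symbol in the platform annotation, because the scanner files hold no gene names, and they are measured by 16 of the 41174 probes, or 10 of 19532 named genes. Obestatin is a peptide cut from the precursor of the stomach hormone ghrelin. Every mouse was of strain CFT Swiss albino and 5 weeks old, and was injected intraperitoneally for 8 days with obestatin (2 samples), N-terminal peptide (2 samples), Nt8U (2 samples) or saline (2 samples). The labels disagree on the tissue, which is the epididymal fat pad in the source name and only epididymal in the tissue field. They also disagree on the peptide dose, 80 ng/kg or 80 nmol/kg, and on the group size, 6 or 3 mice. A 2-colour Agilent array held the pair of samples of 1 group as its channels, so array and group cannot be told apart. In every group 1 sample carried the dye Cy3 and the other Cy5, so dye and sample cannot be told apart within a group. Whether a sample is a mouse or a pool is not given, and p-values therefore measure only the spread between these samples.

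Meiosis in the male takes place in spermatocytes inside the seminiferous tubules of the testis. Homologous chromosomes are broken, paired along a protein zipper called the synaptonemal complex and joined by crossovers before they separate. Transcripts of this machinery are made chiefly by germ cells that enter or pass through meiosis and are not known as marks of fat cells or of the epididymal epithelium, the lining of the duct that stores sperm. Spermatids, the later haploid cells, are known for protamines and transition proteins, which pack the DNA of sperm. In a bulk sample fewer cells of a type and less RNA per cell cannot be told apart.

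The promoters of Sycp1, Sycp3 and Msh5 are shown because they are the members whose promoters held any of 4 short motifs tied in the literature to germ cell or meiotic genes. Each run covers 250 bases before to 50 bases after the gene's start in the RefSeq table for GRCm38.p6, on the gene's own strand. The Sycp1 window is chr3:102936051-102936350 on the minus strand, the Sycp3 window chr10:88459337-88459636 on the plus strand and the Msh5 window chr17:35046573-35046872 on the minus strand. Capitals mark the motif matches.
Sycp1: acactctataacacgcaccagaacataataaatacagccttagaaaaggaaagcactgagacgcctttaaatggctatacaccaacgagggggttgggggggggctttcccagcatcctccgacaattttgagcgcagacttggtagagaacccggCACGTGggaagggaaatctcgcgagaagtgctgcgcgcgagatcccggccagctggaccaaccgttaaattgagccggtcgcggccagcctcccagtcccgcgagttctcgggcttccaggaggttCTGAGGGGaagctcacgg
Sycp3: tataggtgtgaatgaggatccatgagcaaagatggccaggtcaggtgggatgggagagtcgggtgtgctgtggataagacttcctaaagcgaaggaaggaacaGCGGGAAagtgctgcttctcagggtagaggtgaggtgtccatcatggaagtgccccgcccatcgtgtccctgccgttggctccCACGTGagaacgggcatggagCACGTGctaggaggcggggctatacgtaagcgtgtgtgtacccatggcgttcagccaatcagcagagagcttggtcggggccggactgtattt
Msh5: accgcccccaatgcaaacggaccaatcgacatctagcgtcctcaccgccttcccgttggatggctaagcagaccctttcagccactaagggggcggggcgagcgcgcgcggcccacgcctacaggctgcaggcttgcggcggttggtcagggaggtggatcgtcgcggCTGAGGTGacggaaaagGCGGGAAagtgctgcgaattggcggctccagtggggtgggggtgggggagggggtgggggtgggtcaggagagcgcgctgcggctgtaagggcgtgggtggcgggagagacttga

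The motifs searched on both strands were GCGGGAA, bound by E2F factors, CACGTG, the E-box, CNCCTCAG, reported for STRA8, and TGACGT, part of the cyclic AMP response element. No match overlapped another. Sycp1 held an E-box 94 bases before the start and a CNCCTCAG match on the strand opposite to the gene, 32 bases after it. Sycp3 held GCGGGAA 147 bases and E-boxes 64 and 43 bases before the start. Msh5 held GCGGGAA 65 bases and a CNCCTCAG match on the opposite strand 82 bases before the start. RefSeq gave promoters for 9 of the 10 members, Spo11 being the gene without an entry. Of those 9, 2 held GCGGGAA, 2 the E-box, 2 CNCCTCAG and 0 TGACGT, while 4.6%, 7.15%, 7.94% and 7.51% of 32851 promoters of the same length held them in that order. A match describes letters in these windows only.

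Samples are called by the dye that the readme and scanner channels give them. The authors' deposited log2 columns carry the opposite dye within every group, so under those labels the Cy3 and Cy5 values of a group below would trade places, while the group of every value would stay the same.

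The 16 probes were detected very unevenly between samples. Of the 16, 12 and 14 were well above background in the Cy3 and Cy5 samples of obestatin, 7 and 15 in N-terminal peptide, 8 and 15 in Nt8U, and 6 and 15 in saline. The median signal over all probes of a sample was 71 to 224.75 intensity units, and the median of its background was 22 to 31, and 60.8% to 74.6% of all probes were well above background. The number of arrays limits the precision. No member probe was saturated in any sample. Of the members, 13 probes of 9 genes passed the filter, which asked for a signal well above background from each sample of some group, and entered the tests among 28166 probes. Dmc1, the third Sycp2 probe and the third Msh5 probe did not enter, and only 5 member probes, for Sycp3, Msh5 and Rec8, were well above background in all 8 samples. Since a probe could pass through a single group, medians over the 13 describe only those probes. Sycp1, the brightest Sycp2 probe, both Spo11 probes and Mei1 passed through obestatin alone, the group of their lowest mean. Levels below are normalized log2 intensities, on which a difference of 1 is 2-fold, and they are compared between samples only for the same probe.

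The synaptonemal complex genes came first in the order of roles. Sycp1, the transverse filament that holds the chromosome axes together, stood at 8.17 and 7.09 in the Cy3 and Cy5 samples of obestatin, 6.61 and 12.31 in N-terminal peptide, 6.51 and 11.14 in Nt8U, and 6.33 and 12.63 in saline. The Cy5 samples of N-terminal peptide, Nt8U and saline were the 3 high ones, and the Cy3 samples of the same groups were not well above background. The Cy5 sample was at least 51.8-fold higher than the Cy3 sample in N-terminal peptide, at least 24.8-fold in Nt8U and at least 78.8-fold in saline, against 2.12-fold lower in obestatin. Such a limit sets the bright sample against the lowest signal well above background, or against the probe's own value if that was higher, in the dim sample. The median signals before normalization were 176 and 121 intensity units in obestatin, 42 and 7668 in N-terminal peptide, 42 and 3978 in Nt8U, and 51 and 6575 in saline. The same 3 samples were thus high before any correction.

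Sycp2, a component of the lateral elements that flank each chromosome pair, was high in the same 3 samples. Its brightest probe stood at 8.26 and 7.22 in obestatin, 6.50 and 11.99 in N-terminal peptide, 6.77 and 11.13 in Nt8U, and 6.28 and 12.12 in saline, Cy3 before Cy5. The second probe stood at 6.84 and 6.45 in obestatin, 6.31 and 10.43 in N-terminal peptide, 6.71 and 9.60 in Nt8U, and 6.13 and 10.46 in saline. The third probe was well above background only in the Cy5 samples of N-terminal peptide (8.43), Nt8U (7.46) and saline (8.64). All 3 Sycp2 probes therefore placed the same 3 samples highest.

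Sycp3, the other lateral element protein, differed less between the Nt8U samples than between those of N-terminal peptide and saline. It stood at 8.38 and 8.03 in obestatin, 7.29 and 12.14 in N-terminal peptide, 9.02 and 9.82 in Nt8U, and 7.31 and 11.88 in saline, and it was well above background in all 8 samples. Its Cy3 sample of Nt8U was the highest of the Cy3 samples, at 324 intensity units before normalization against 113 in the Cy3 sample of saline. Within Nt8U the Cy5 sample was 1.74-fold higher, against 28.7-fold in N-terminal peptide and 23.8-fold in saline, while in obestatin it was 1.28-fold lower. The array carries a single Sycp3 probe, so no other probe checks this value.

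Rec8, the kleisin subunit of the meiotic cohesin ring, was measured in all samples by both of its probes. The brighter probe stood at 9.94 and 9.46 in obestatin, 9.16 and 13.48 in N-terminal peptide, 7.90 and 12.45 in Nt8U, and 10.02 and 13.62 in saline. The other probe stood at 8.00 and 7.43 in obestatin, 7.52 and 10.87 in N-terminal peptide, 7.23 and 9.56 in Nt8U, and 7.49 and 10.46 in saline. Both probes were lowest in the Cy3 sample of Nt8U, the sample in which Sycp3 was the highest of the Cy3 samples. The bright probe was 19.9-fold higher in the Cy5 sample of N-terminal peptide, 23.4-fold in Nt8U and 12.1-fold in saline, and 1.39-fold lower in that of obestatin.

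A further 3 genes act in making and repairing the breaks that start recombination. Spo11, the enzyme that cuts the DNA, stood at 7.01 and 6.67 in obestatin, 6.48 and 10.73 in N-terminal peptide, 6.54 and 9.26 in Nt8U, and 6.31 and 10.44 in saline by its first probe. Its second probe stood at 7.12 and 6.39 in obestatin, 6.39 and 11.16 in N-terminal peptide, 6.33 and 9.45 in Nt8U, and 6.22 and 10.09 in saline. By both probes the Cy5 sample of N-terminal peptide was the highest, and the Cy3 samples of N-terminal peptide, Nt8U and saline were not well above background.

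Mei1, needed for break formation in the mouse, stood at 7.21 and 6.64 in obestatin, 6.43 and 10.50 in N-terminal peptide, 6.60 and 9.10 in Nt8U, and 6.39 and 10.55 in saline. Dmc1, the recombinase that carries out strand exchange in meiosis, was dim on this array. It was well above background in the Cy5 samples only, at 6.37 in obestatin, 8.18 in N-terminal peptide, 7.49 in Nt8U and 8.17 in saline, and so had no group with both samples measured. Its Cy5 sample was at least 4.28-fold higher in N-terminal peptide, 2.4-fold in Nt8U and 3.3-fold in saline than the Cy3 sample.

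Msh4 and Msh5 form the MutS homolog pair that stabilises crossover intermediates. Msh4 stood at 6.35 and 6.18 in obestatin, 6.21 and 9.22 in N-terminal peptide, 6.83 and 8.31 in Nt8U, and 6.33 and 9.31 in saline. It was not well above background in either obestatin sample, nor in the Cy3 samples of N-terminal peptide and saline. Against obestatin, where only a bound exists, the group mean was at least 2.47-fold higher in Nt8U, the 1 group with both samples measured. Msh4 passed the filter through Nt8U alone, so this bound only describes the probe. The log2 difference was 0.49 in the Cy3 samples and 2.12 in the Cy5 samples. The means of N-terminal peptide (7.71) and saline (7.82) were above that of Nt8U (7.57), but each includes a Cy3 value not well above background.

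The 3 probes of Msh5 disagreed. The first stood at 7.23 and 6.93 in obestatin, 6.79 and 8.91 in N-terminal peptide, 7.05 and 7.89 in Nt8U, and 6.75 and 8.49 in saline. The second spanned only 6.50 to 7.47 over the 8 samples, a 1.96-fold range, and the third spanned 6.03 to 6.47 and was well above background in 3 samples. The Cy5 sample of saline was 3.34-fold above the Cy3 sample by the first probe and 1.45-fold by the second, while by the third the Cy3 sample was at least 1.09-fold higher.

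Stra8, the retinoic acid-induced gene of meiotic entry, stood at 8.13 and 6.43 in obestatin, 6.90 and 12.03 in N-terminal peptide, 6.89 and 11.13 in Nt8U, and 6.34 and 11.31 in saline. The Cy5 sample was 34.9-fold higher in N-terminal peptide, 18.8-fold in Nt8U and at least 31.3-fold in saline. In obestatin it was 3.24-fold lower, the widest difference within obestatin among the 13 tested member probes.

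**Figure D1:**
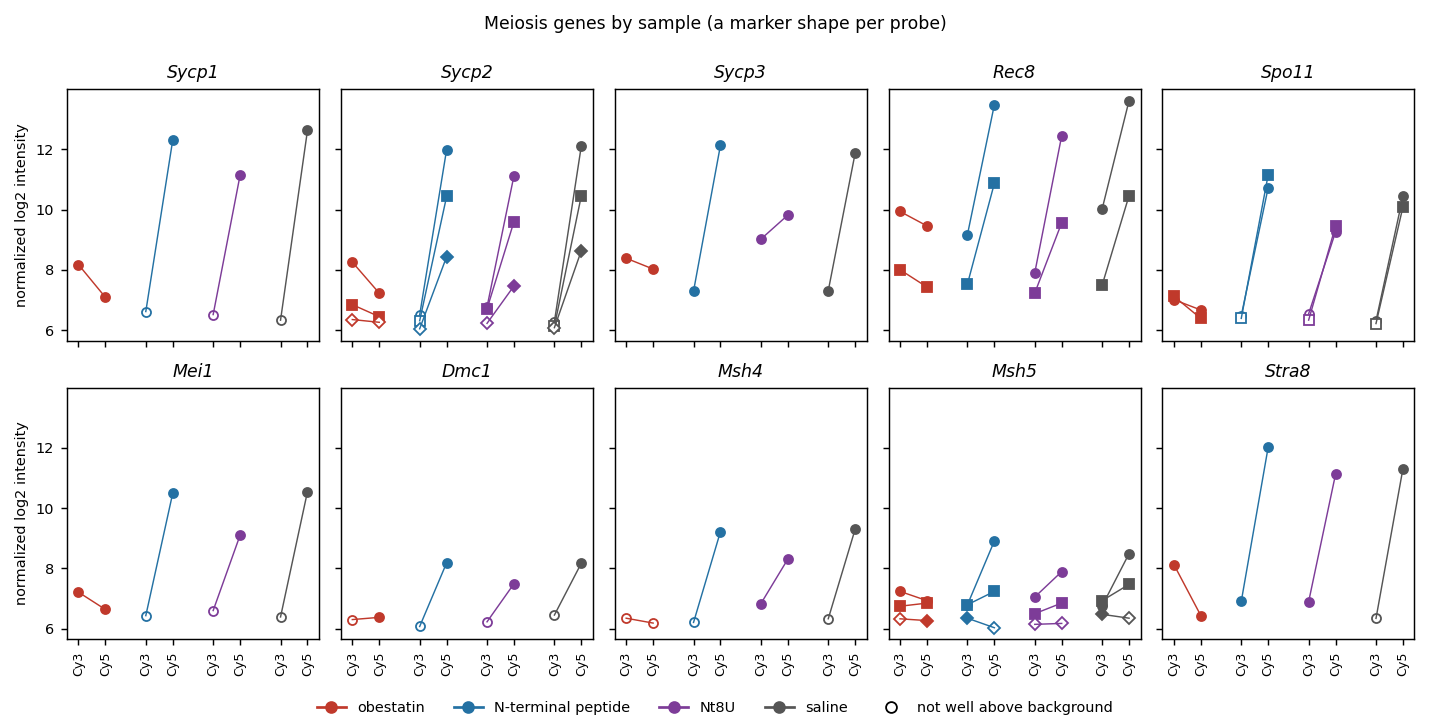
Normalized log2 intensity of each meiosis gene in the Cy3 and Cy5 sample of each group, with a marker shape for each probe, lines joining both samples of a group and open marks for values not well above background. The Cy5 samples of N-terminal peptide, Nt8U and saline stand above their Cy3 partners for every gene by at least 1 probe, while the obestatin samples differ by up to 3.24-fold, for Stra8, and in the opposite direction for most probes.

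Over the 13 tested member probes, 0 were more than 4-fold higher in the Cy5 sample of obestatin, 12 in that of N-terminal peptide, 9 in that of Nt8U and 11 in that of saline. Among all 28166 tested probes the share was 0.0355% in obestatin, 17% in N-terminal peptide, 12% in Nt8U and 16.6% in saline. For the 5 member probes well above background in all samples the median difference, Cy5 minus Cy3, was -0.36 in obestatin, 3.34 in N-terminal peptide, 0.85 in Nt8U and 2.97 in saline. Over all tested probes that median lay between -0.01 and 0.05 in the 4 groups. In Nt8U, 4 of the 13 tested probes differed by less than 4-fold, with 0.80 for Sycp3, 1.48 for Msh4, and 0.85 and 0.35 for the first and second probes of Msh5. The second Msh5 probe differed little in every group, by 0.10 in obestatin, 0.44 in N-terminal peptide, 0.35 in Nt8U and 0.54 in saline.

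**Figure D2:**
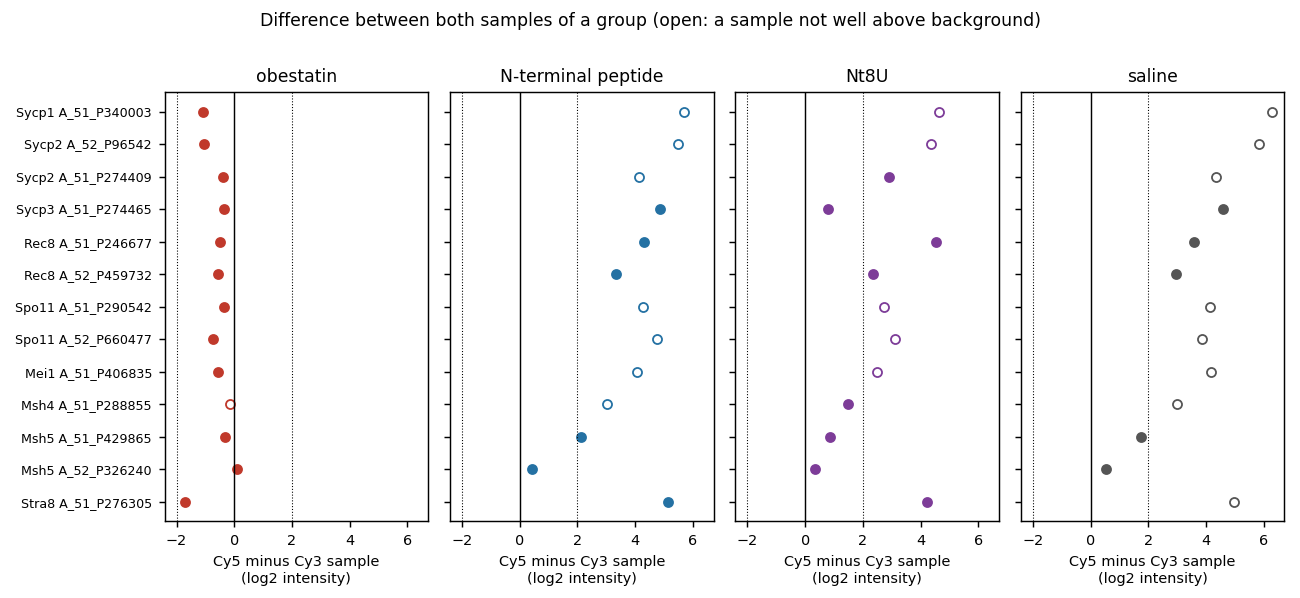
Difference in normalized log2 intensity between the Cy5 and Cy3 sample of each group for the 13 tested member probes, with open marks where a sample was not well above background and dotted lines at 4-fold. The obestatin points lie from -1.69 to 0.10, and the points of the other 3 groups lie to the right of 0, up to 5.70 in N-terminal peptide, 4.63 in Nt8U and 6.30 in saline.

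The comparisons between groups asked whether a peptide changed these genes. In limma's moderated test with Benjamini-Hochberg adjustment over 28166 probes, 0 of the 13 member probes passed an adjusted p of 0.05 in any of the 6 comparisons, against 0% of all probes in each. At an unadjusted p under 0.05 the members also counted 0 in each, against 8.44% of all probes for obestatin minus saline, 0.841% for N-terminal peptide minus saline and 7.96% for Nt8U minus saline. Between the peptides the shares of all probes were 10.7% for Nt8U minus N-terminal peptide, 10.1% for N-terminal peptide minus obestatin and 1.46% for Nt8U minus obestatin. The SE of a member's difference was 0.25 to 1.93 on the log2 scale, against a median of 0.41 over all probes. Differences of several fold between group means were therefore not detectable for most members with these samples.

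For obestatin minus saline the fitted median over the 13 probes was -1.53, beside 0.05 over all probes. Sycp1 averaged 7.63 ± 0.77 in obestatin and 9.48 ± 4.45 in saline (SD, n = 2 each), and its difference was -1.85 with a 95% interval of -6.92 to 3.23 (limma, adjusted p = 0.674). Within each dye the direction was not the same. In the Cy3 samples 11 of the 13 probes were higher in obestatin, with a median difference of 0.72, and in the Cy5 samples 13 were lower, with a median of -3.86. Over all probes those medians were 0.14 and 0.11. Of the 13, only the 5 probes measured in all samples were well above background in the Cy3 sample of saline. Their Cy3 differences had mixed signs, with 1.08 for Sycp3, 0.48 and -0.19 for Msh5, and -0.08 and 0.51 for Rec8. Without the Cy3 obestatin sample the fitted median was -3.62, and without the Cy5 one it was 0.49. Each of these fits rests on a lone obestatin sample, which is assumed to vary like the other groups. The dye shift is also taken from those groups, whose Cy5 samples stood higher for these genes. Dye and sample cannot be told apart within a group, so member calls from these fits are not given. No effect of obestatin is read from their calls over all probes.

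Both obestatin samples lay below both saline samples for 2 of the 13 member probes, the brighter one of Rec8 and the second of Msh5, against 12.2% of all probes. For the brighter Rec8 probe the means were 9.70 ± 0.34 in obestatin and 11.8 ± 2.55 in saline (SD, n = 2 each), a difference of -2.12 (SE 1.35, limma adjusted p = 0.643). In the Cy3 samples alone Rec8 differed by -0.08 and in the Cy5 samples by -4.16. The second Msh5 probe averaged 6.79 ± 0.07 in obestatin and 7.20 ± 0.38 in saline and differed by -0.40 (SE 0.25, limma adjusted p = 0.643).

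N-terminal peptide and saline gave close median member levels in both dyes. In their Cy3 samples, however, only 7 and 6 of the 16 member probes were well above background. The brighter Rec8 probe, measured in both, differed there by -0.86. The fitted median difference was 0.08, beside 0.03 over all probes, with 0.04 in Cy3 samples and -0.03 in Cy5 samples. The widest was Stra8, which averaged 9.47 ± 3.63 in N-terminal peptide and 8.82 ± 3.51 in saline (SD, n = 2 each) and differed by 0.64, with a 95% interval of -4.24 to 5.53 (limma, adjusted p = 1). Intervals this wide do not show that the groups were alike.

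Nt8U minus saline gave a median of -0.26, beside -0.07 over all probes. The probe with the lowest p was the second one of Msh5, at 6.67 ± 0.25 in Nt8U and 7.20 ± 0.38 in saline (SD, n = 2 each), a difference of -0.53 (SE 0.25, limma adjusted p = 0.72). It was the 1 member probe of the 13 with both Nt8U samples below both saline samples, against 10.6% of all probes. For Sycp3 the dyes opposed each other, with 1.71 in Cy3 samples and -2.06 in Cy5 samples, around a fitted difference of -0.18.

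The peptides were given at the same labelled dose and time, and 3 pairs of them were compared. Nt8U is called an analog of the fragment in the labels, which do not give the change in structure. Nt8U minus N-terminal peptide gave a median of -0.46, beside -0.11 over all probes, with 0.07 in Cy3 samples and -1.03 in Cy5 samples. All 13 probes were lower in Nt8U in the Cy5 samples. Over all probes the medians were -0.03 in Cy3 samples and -0.08 in Cy5 samples. For the brighter Rec8 probe the means were 10.2 ± 3.22 in Nt8U and 11.3 ± 3.05 in N-terminal peptide (SD, n = 2 each), a difference of -1.14 with a 95% interval of -4.69 to 2.41 (limma, adjusted p = 0.875).

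N-terminal peptide minus obestatin gave a median of 1.54, beside -0.04 over all probes, and Nt8U minus obestatin gave 1.14, beside -0.002 over all probes. In the Cy5 samples the medians were 4.02 and 2.60 and in the Cy3 samples -0.73 and -0.61, in the same order of comparisons. Over all probes those medians were -0.11 and -0.08 in the Cy5 samples and -0.07 and -0.10 in the Cy3 samples. Only 7 and 8 of the 16 member probes were well above background in the Cy3 samples of N-terminal peptide and Nt8U. Stra8 averaged 9.47 ± 3.63 in N-terminal peptide and 7.28 ± 1.20 in obestatin (SD, n = 2 each) and differed by 2.19 with a 95% interval of -2.70 to 7.08 (limma, adjusted p = 0.597). Sycp3 averaged 9.42 ± 0.57 in Nt8U and 8.20 ± 0.25 in obestatin and differed by 1.21 with an interval of -2.75 to 5.18 (limma, adjusted p = 0.989). Without the Cy3 obestatin sample the medians were 3.79 for N-terminal peptide minus obestatin and 3.09 for Nt8U minus obestatin. Without the Cy5 obestatin sample they were -0.36 and -1.05 in the same order. The lone obestatin sample is again assumed to vary like the other groups and to share their dye shift. The 3 comparisons with obestatin share its samples, as the 3 with saline share theirs.

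**Figure D3:**
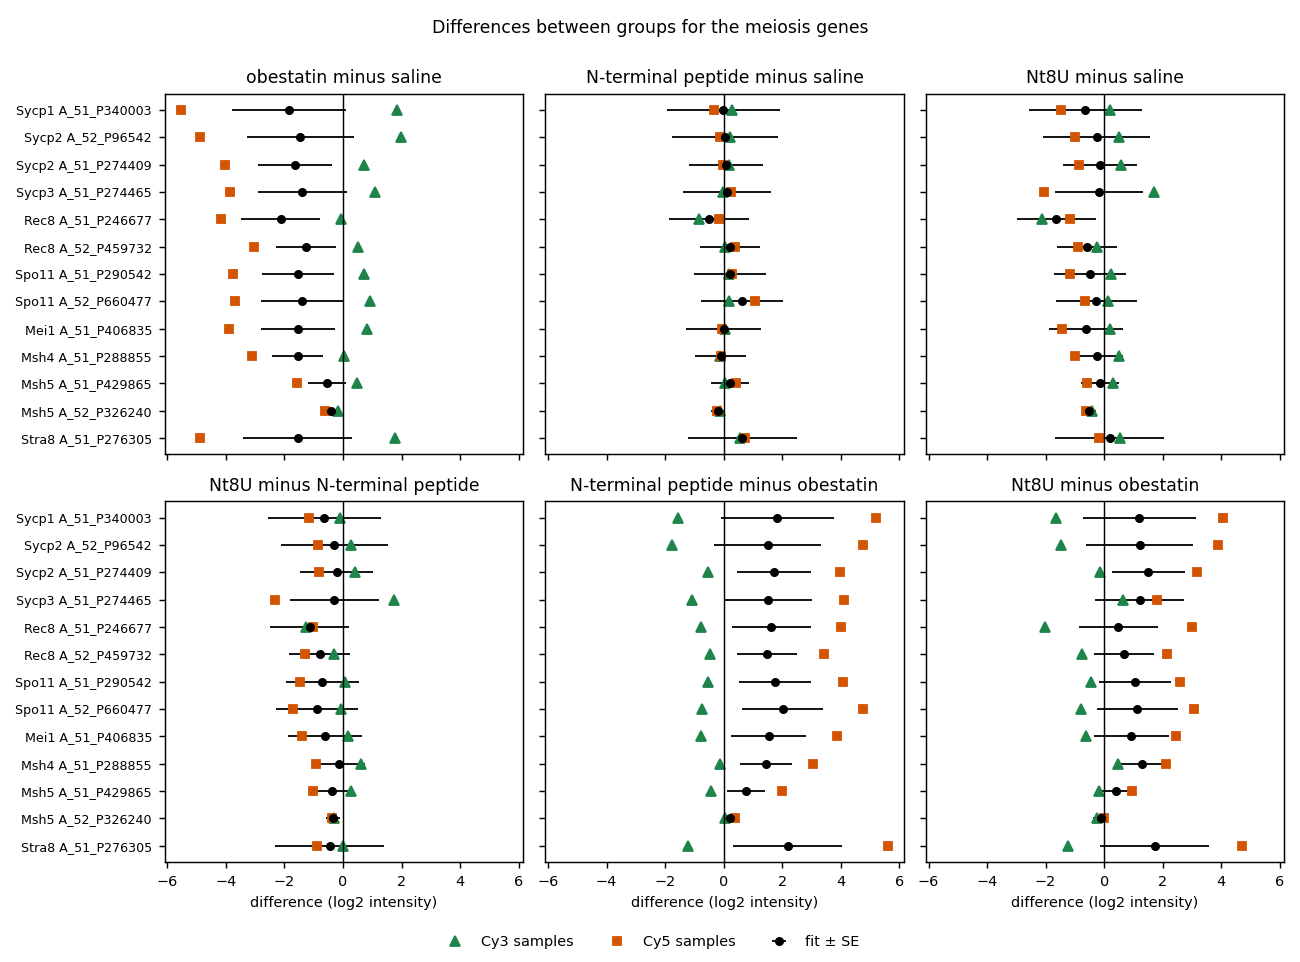
Fitted log2 difference with its SE for each tested member probe in the 6 comparisons, beside the same difference within the Cy3 samples (triangles) and within the Cy5 samples (squares). In the comparisons with obestatin most triangles and squares lie on opposite sides of 0, with medians of 0.72 and -3.86 for obestatin minus saline, while in N-terminal peptide minus saline all 3 kinds of mark lie near 0 for most probes.

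Other meiosis genes, which the choice of members did not use, were spread over the samples in the same way. Of 40 listed genes 32 were on the array and 27 were tested. The number more than 4-fold higher in the Cy5 sample was 0 in obestatin, 23 in N-terminal peptide, 20 in Nt8U and 24 in saline, with medians of -0.52, 4.11, 2.67 and 4.42 in that order of groups. Their median difference between obestatin and saline was 0.97 in Cy3 samples and -3.77 in Cy5 samples, and 0 passed the adjusted test in any comparison. Members and lists were both picked as germ cell genes, so the agreement is a description of these samples.

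Smc1b, a cohesin subunit of meiosis, stood at 10.32 and 8.66 in obestatin, 7.59 and 14.43 in N-terminal peptide, 6.86 and 13.19 in Nt8U, and 7.05 and 14.04 in saline, the value of 6.86 being not well above background. Stag3, another meiotic cohesin subunit, stood at 10.38 and 9.16 in obestatin, 8.31 and 14.30 in N-terminal peptide, 7.17 and 13.39 in Nt8U, and 8.39 and 14.48 in saline. Both were high in the same 3 samples as the members. Syce1 and Syce2, central element proteins of the synaptonemal complex, stood higher in the Cy5 sample by 5.81 and 4.11 in N-terminal peptide, 5.87 and 4.88 in Nt8U, and 6.86 and 4.42 in saline. Syce1 was saturated in the Cy5 sample of N-terminal peptide, so its difference there is understated. Tex12, also of the central element, and Hormad1, an axis protein, stood higher in the Cy5 sample by at least 5.46 and 5.65 in N-terminal peptide, 3.67 and 3.94 in Nt8U, and 5.19 and 5.58 in saline, since neither was well above background in the Cy3 samples of these groups.

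Mnd1 departed from this order, while Mlh3 kept it with smaller differences, and Hfm1 and Prdm9 were dim. Mnd1, a partner of the strand exchange proteins, stood at 9.46 and 8.82 in obestatin, 8.56 and 9.09 in N-terminal peptide, 9.99 and 8.91 in Nt8U, and 7.98 and 9.32 in saline, and was highest in the Cy3 sample of Nt8U. Mlh3, a MutL homolog of crossover resolution, differed between the Cy5 and Cy3 sample by 1.52 in N-terminal peptide, 1.13 in Nt8U and 1.10 in saline. Hfm1, a crossover helicase, was well above background only in the Cy5 samples of N-terminal peptide, Nt8U and saline. Prdm9, the methyltransferase that places the breaks, was not well above background in any sample.

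Genes of pachytene spermatocytes, the longest stage of meiotic prophase, and of spermatids were high in the same 3 samples, and some were high in obestatin as well. All 12 pachytene genes in N-terminal peptide, 10 in Nt8U and 12 in saline were more than 4-fold higher in the Cy5 sample, as were all 15 spermatid genes in each of these groups. In the Cy3 samples the median difference between obestatin and saline was 1.60 for pachytene and 2.24 for spermatid genes, beside 0.82 for the members by their brightest probes and 0.14 for all probes. Only 3 of the 9 tested member genes were well above background in the Cy3 sample of saline, against 15 of 15 spermatid genes, so these medians are not comparable in size. Ldhc, the germ cell lactate dehydrogenase, stood at 15.42 and 13.79 in obestatin, 9.49 and 15.24 in N-terminal peptide, 8.94 and 15.17 in Nt8U, and 9.15 and 15.87 in saline, with the Cy5 values of the last 3 groups saturated. Prm2, a protamine, stood at 16.53 and 15.32 in obestatin, 12.44 and 15.40 in N-terminal peptide, 11.70 and 15.19 in Nt8U, and 12.24 and 15.99 in saline, again saturated in those 3 Cy5 samples. Both obestatin samples were thus high for Ldhc and Prm2, and not saturated, where the member genes were low.

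Within the Cy3 dye the germ cell lists overlapped in size. The Cy3 sample of obestatin stood above that of saline by 6.27 for Ldhc, 4.29 for Prm2, 3.97 for Tnp1, a transition protein, and 3.49 for Prm1, another protamine. For members the same difference was 1.85 for Sycp1, 1.79 for Stra8, 1.08 for Sycp3 and -0.08 for the brighter Rec8 probe, and Sycp1 and Stra8 were not well above background in that saline sample. Other meiosis genes reached as far as some spermatid genes, with 3.27 for Smc1b and 2.95 for Syce1, while pachytene genes included smaller differences, with 1.23 for Hspa2. Spermatid genes were not uniform, since Tnp2, another transition protein, differed by -0.20 and Akap4, of the sperm tail sheath, by 2.89. In limma's test over both dyes 0 of the spermatid and 0 of the pachytene genes passed.

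Pgk2 and Hspa2, a glycolytic enzyme and a chaperone of spermatocytes, stood lower in both obestatin samples than in the 3 high Cy5 samples, as the members did. Pgk2 stood at 12.14 and 10.42 in obestatin, 9.69 and 15.26 in N-terminal peptide, 8.58 and 14.40 in Nt8U, and 9.23 and 15.76 in saline, the Cy5 value of N-terminal peptide being saturated. Hspa2 stood at 12.06 and 11.04 in obestatin, 10.61 and 15.32 in N-terminal peptide, 9.16 and 14.65 in Nt8U, and 10.83 and 15.54 in saline, also saturated in the Cy5 sample of N-terminal peptide.

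The lists of other testis cells had smaller medians than the members by their brightest probes. Cy5 minus Cy3, the member medians were 4.31 in N-terminal peptide, 2.72 in Nt8U and 4.16 in saline. Over the 5 member probes measured in all samples, however, the Nt8U median was 0.85, below those of all 3 lists. Dim Cy3 values limit the size of these differences, and single genes of the lists differed more. Cy5 minus Cy3, the median was 1.81 in N-terminal peptide, 1.06 in Nt8U and 0.98 in saline for spermatogonia genes, 1.90, 1.79 and 1.76 for Sertoli cell genes, and 2.99, 2.31 and 2.47 for Leydig cell genes. Of 10 spermatogonia genes tested, 5 in N-terminal peptide, 4 in Nt8U and 4 in saline were more than 4-fold higher in the Cy5 sample, against 0 in obestatin. Ddx4 and Dazl, RNA-binding proteins that later germ cells also make, were among the higher ones, by 7.48 and 4.21 in N-terminal peptide, 6.72 and 3.16 in Nt8U, and 7.81 and 4.23 in saline. Kit, a receptor of differentiating spermatogonia that many other cells carry, differed by 0.92 in N-terminal peptide, 1.31 in Nt8U and 0.05 in saline. Of 10 Sertoli cell genes tested, 5 were more than 4-fold higher in the Cy5 sample in each of these 3 groups, and of 6 Leydig cell genes 4 were in N-terminal peptide, 5 in Nt8U and 5 in saline.

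Rhox5, a homeobox gene of Sertoli cells and also of the epididymis, stood at 8.30 and 7.20 in obestatin, 9.37 and 12.78 in N-terminal peptide, 6.85 and 11.68 in Nt8U, and 9.99 and 12.47 in saline. Star, which brings cholesterol into the mitochondria of steroid-making Leydig cells, stood at 6.98 and 6.98 in obestatin, 6.67 and 9.50 in N-terminal peptide, 7.17 and 9.32 in Nt8U, and 6.50 and 8.90 in saline. Cyp17a1, an enzyme of androgen synthesis, stood at 9.39 and 9.47 in obestatin, 10.02 and 10.54 in N-terminal peptide, 7.52 and 9.79 in Nt8U, and 7.29 and 9.82 in saline. These somatic genes were higher in the Cy5 than in the Cy3 sample of the same 3 groups, and Rhox5 was not well above background in the Cy3 sample of Nt8U. Sox9, which is not restricted to the testis, did not follow them, at 10.11 and 8.93 in N-terminal peptide and 11.30 and 9.61 in saline, and Amh was well above background only in the Cy5 sample of obestatin.

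Epididymis genes had the opposite sign in N-terminal peptide and saline. Their median difference, Cy5 minus Cy3, was -0.23 in obestatin, -3.77 in N-terminal peptide, 0.81 in Nt8U and -5.15 in saline over 15 genes, and 8 of them were saturated in the Cy3 sample of saline. Lcn8, a lipocalin of the epididymis, stood at 7.50 and 6.54 in obestatin, was well above background only in the Cy3 sample of N-terminal peptide (6.64) and in neither of Nt8U, and stood at 16.46 and 10.98 in saline, saturated in the Cy3 sample. Adipocyte genes differed by -1.11 in obestatin, -3.46 in N-terminal peptide, -1.37 in Nt8U and -0.28 in saline over 19 genes, and Adipoq, the adipocyte hormone adiponectin, was well above background in all 8 samples. Macrophage genes differed by -1.23 in obestatin, -1.06 in N-terminal peptide, -0.93 in Nt8U and -0.85 in saline. The part of these other cell types in the comparisons of the members was not tested.

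**Figure D4:**
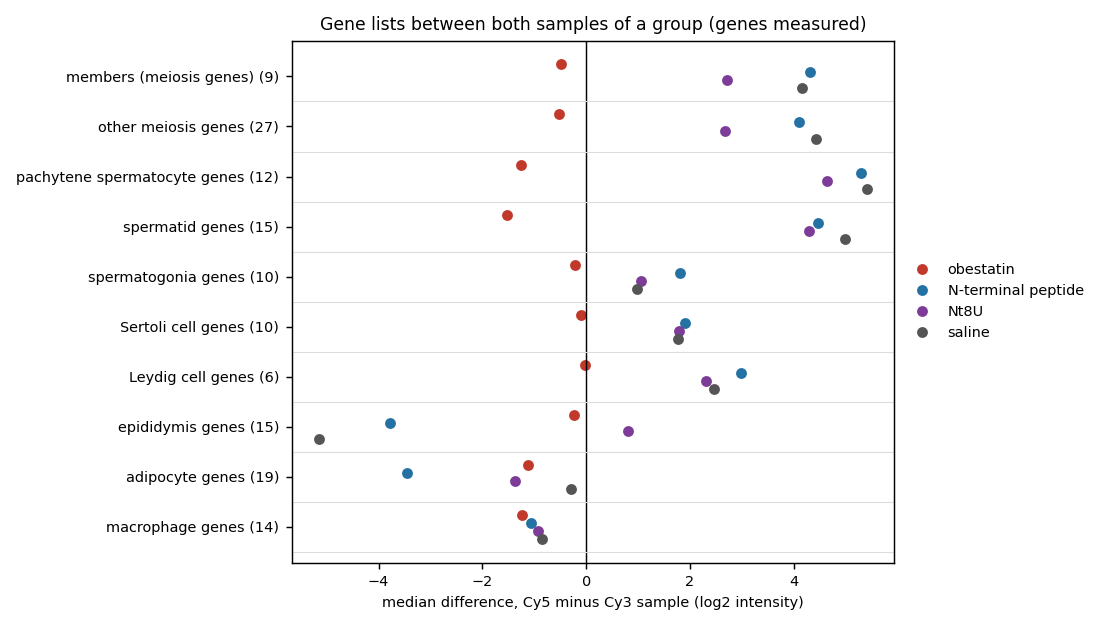
Median difference in normalized log2 intensity between the Cy5 and Cy3 sample of each group for each gene list, by the brightest probe of each gene, with the number of tested genes in parentheses. Meiosis, pachytene and spermatid genes lie between 2.67 and 5.41 in N-terminal peptide, Nt8U and saline and below 0 in obestatin, while epididymis genes lie at -3.77 in N-terminal peptide and -5.15 in saline.

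The members varied together over the samples. Across the 8 samples the Pearson correlation between pairs of tested member probes was 0.691 to 0.998 with a median of 0.967 over 78 pairs, a description in which the pairs share their arrays and the 3 high samples. The probe least like the mean of the others was the second one of Msh5 (r = 0.782), followed by Sycp3 (r = 0.94) and the brighter Rec8 probe (r = 0.946). Among 15415 genes compared, members included, the 5 non-member genes most like the members' mean profile were Zfp597, 1700112J05Rik, Tdp1, Fam124b and C2cd6. Each had an r of at least 0.999 over 8 samples. Tdp1, which encodes a DNA repair phosphodiesterase, stood at 10.16 and 9.63 in obestatin, 9.57 and 13.17 in N-terminal peptide, 9.62 and 11.98 in Nt8U, and 9.44 and 12.92 in saline.

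Over the 13 probes the correlation across probes was 0.97 between the Cy5 samples of N-terminal peptide and saline, 0.96 between those of Nt8U and saline and 0.977 between the Cy3 samples of N-terminal peptide and saline. For the Cy3 sample of Nt8U it was 0.618 with the Cy3 sample of N-terminal peptide, 0.594 with that of saline and 0.707 with the Cy5 sample of obestatin. Within a group it was 0.875 in obestatin, 0.486 in N-terminal peptide, 0.279 in Nt8U and 0.423 in saline. Over all tested probes the correlation within a group was 0.97, 0.621, 0.787 and 0.648 in that order. Probes of a sample are not independent replicates, and levels of different probes set much of each value.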

How the data were processed

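Intensities of both channels were made by Feature Extraction 10.5.1.1, per the file headers, and the deposited median signals and median backgrounds were used. The deposited readme ties channels to samples. The authors also deposited log2 values made in GeneSpring GX 10, with the saline samples as baseline per the readme. Each of those columns followed a scanner channel (r = 1), but columns labelled Cy3 followed the red channel and columns labelled Cy5 the green, so the 2 samples of each group would trade places under those labels, while every group stays the same. Column medians were -2.9 to -2.14, and how the authors centred each gene stays unknown. The authors' deposited lists of log2 fold changes for N-terminal peptide (109 probes) hold 0 member probes and matched the channels as the readme gives them (r = 1).

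Background was corrected by normexp (offset 50), with loess within and Aquantile between arrays, in limma 3.58.1 (R 4.3.3). Spots of a probe were averaged, and 87 probes with outlier marks were left out. Kept were 28166 probes with a signal well above background from each sample of some group. Group means and a dye term were fitted to 8 samples (3 residual and 1.67 prior degrees of freedom), with two-sided tests and Benjamini-Hochberg adjustment at 0.05. No block for the array could be fitted, since each array held 1 group. The platform annotation gave 1 symbol to 32664 probes and several to 45, and 8465 are unnamed here; symbols were updated through Entrez numbers with a GRCm38.p6 table. The fit was tested on simulated data with no dye difference and a spread capped at the median over probes. Most member probes spread more than that, so the simulation does not cover them. The named genes were all members, preset genes of the lists, by the brightest probe, and the 5 genes most like the members. The members and lists were chosen with earlier results of these data known. Alternatives changed the background correction, normalization, filter, dye term, probe choice and samples.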

Additional observations from a re-analysis of the deposited data

How the results depend on the processing

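The calls and the median differences of the members were recomputed under 17 alternatives. No probe was called in any comparison under the 9 that changed the processing, and in each of them the median member difference kept within the spread between samples; it was -1.54 to -1.26 for obestatin minus saline, -0.06 to 0.14 for N-terminal peptide minus saline, -0.53 to -0.25 for Nt8U minus saline, -0.59 to -0.38 for Nt8U minus N-terminal peptide, 1.47 to 1.64 for N-terminal peptide minus obestatin and 0.48 to 1.20 for Nt8U minus obestatin. Leaving out the Cy3 obestatin sample called 3861 probes in obestatin minus saline, 5224 in N-terminal peptide minus obestatin and 1842 in Nt8U minus obestatin, against 0 when any other sample was left out. The fit without the Cy3 obestatin sample rests on the lone Cy5 obestatin sample, whose spread and dye shift are taken from the other groups. Dye and sample cannot be told apart there, so no effect of a peptide is read from these calls. Over the samples left out, the median member difference was -3.62 to 0.49 for obestatin minus saline, -0.87 to 1.14 for N-terminal peptide minus saline, -1.22 to 0.49 for Nt8U minus saline, -1.68 to 0.46 for Nt8U minus N-terminal peptide, -0.36 to 3.79 for N-terminal peptide minus obestatin and -1.05 to 3.09 for Nt8U minus obestatin. The extremes came from leaving out an obestatin sample in the 3 comparisons with obestatin, a saline sample in the other 2 with saline and an N-terminal peptide sample in Nt8U minus N-terminal peptide. The difference of the members between both samples of a group turned its sign under the labels of the authors' log2 columns, to 1.19 in obestatin, -4.25 in N-terminal peptide, -2.54 in Nt8U and -3.97 in saline, because those labels exchange the samples. With the scanner's processed signals it was -1.09 in obestatin, 6.70 in N-terminal peptide and 6.25 in saline, without loess it was -0.97 in obestatin, and over the 5 probes measured in all samples it was 0.85 in Nt8U; the cause was not tested. Single member probes changed sign in 106 of 1254 values, and no member was called under the 9 alternatives that changed the processing. Member calls from the fits with a sample left out are not given either. Signal near background limits the Cy3 values. The replicate number is also the dye, which the fit holds as a term.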
